A study of Mus musculus with 25 samples.

Results

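Broad accessible domains are the widest stretches of open chromatin in the peak table: intervals of 3000 bp or more on chromosomes 1 to 19 or X. There were 227 of them among 13527 peaks (1.68%), and they held 6.07% of all bases in peaks. The median domain was 3575 bp long and the longest 15247 bp, against a median of 963 bp over all peaks. A further interval of that size, on an unplaced contig, was left out. The rule used only the end minus the start of each interval and no count. The interval ends, however, were drawn by merging peak lists called on the same libraries, so width is not independent of how these cells were profiled.

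Accessibility was measured by ATAC-seq, in which a transposase inserts sequencing adapters where DNA is not packed into nucleosomes. The cells were CD8+ T cells from spleen and lymph nodes of female C57BL/6 (B6) mice that bind a tetramer of an OVA peptide, and so recognize an antigen of the 2W-OVA.BALB/c strain used as skin donor and as father. The study asked how pregnancy modifies such fetus/graft-specific cells in naive mice and in mice that had rejected a graft. The 25 libraries shared a sequencing run, were made from small numbers of sorted cells, and came from mice bought as young adults, whose ages at analysis are not given in the sources used here.

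Naive mice (n = 3 libraries) had no graft and no pregnancy. Sensitized mice (n = 4) had rejected a paternal skin graft and were analysed a month or more after grafting. N+P mice were naive before a semi-allogeneic pregnancy, and S+P mice were grafted before it. Both were analysed within days of delivery. The cells of pregnant mice were sorted on the inhibitory receptor PD1 and the ectoenzyme CD73: N+P C1 (n = 3) and S+P C4 (n = 4) were PD1-, N+P C5 (n = 3) and S+P C5 (n = 4) were PD1+CD73+, and S+P C7 (n = 4) was PD1+CD73-. All 7 groups recognize the same antigen in the same strain, and sorted subsets may come from the same mouse. By the study's methods, suspensions were made mouse by mouse and the data stem from more than 1 independent experiment. The labels do not tie each library to a mouse or an experiment, so the experiments cannot be told apart here and p-values measure the spread between libraries.

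In most cell types an accessible site is about as wide as a few nucleosomes. Intervals several times as wide form where a promoter, its first intron and nearby enhancers are open side by side, and in lymphocytes they are known at highly transcribed and rapidly inducible genes. Immediate early genes, such as those of the FOS, JUN, EGR and NR4A transcription factors, are transcribed within minutes of a signal, and feedback genes such as Tnfaip3 and Dusp2 then restrain that signal.

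The reference sequences of 6 domains on which the comparisons turn are shown to place them. Tle1, St6gal1 and Irs2 were the promoter windows of domains called lower in sensitized groups. Satb1 was that of a domain wide only through the N+P C5 list, where its counts were higher, and its change is a description. Csrnp1 was that of a domain with higher counts in the PD1+ subsets of S+P mice. Apart from the domains near Esp38 and Sfi1, described below, the Bhlhe40 domain was the one called higher in 2 comparisons. For all but Bhlhe40 the window is the RefSeq promoter, 250 bases before to 50 after a gene start, found by its letters inside the GRCm39 domain. In 125 of the 227 domains such a window of the nearest gene was found. For Bhlhe40 the middle 300 bases are shown. Capitals mark every match, on either strand, to 6 short motifs: TGANTCA (AP-1), TGTGGT (RUNX), CTTTGA (TCF/LEF), GGAAAA (NFAT), CGGAAG (ETS) and GGGCGG (GC box). The motifs are short, neighbouring GC boxes can overlap, and a match is a description and not a bound site. Sequences are written 5′ to 3′ on the strand of the gene, and on the plus strand for Bhlhe40.
Satb1: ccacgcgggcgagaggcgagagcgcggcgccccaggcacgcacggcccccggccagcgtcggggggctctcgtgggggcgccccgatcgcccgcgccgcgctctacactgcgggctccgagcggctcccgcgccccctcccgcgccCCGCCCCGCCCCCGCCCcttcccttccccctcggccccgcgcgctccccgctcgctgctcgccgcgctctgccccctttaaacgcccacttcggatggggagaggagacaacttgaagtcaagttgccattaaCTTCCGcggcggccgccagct
Tle1: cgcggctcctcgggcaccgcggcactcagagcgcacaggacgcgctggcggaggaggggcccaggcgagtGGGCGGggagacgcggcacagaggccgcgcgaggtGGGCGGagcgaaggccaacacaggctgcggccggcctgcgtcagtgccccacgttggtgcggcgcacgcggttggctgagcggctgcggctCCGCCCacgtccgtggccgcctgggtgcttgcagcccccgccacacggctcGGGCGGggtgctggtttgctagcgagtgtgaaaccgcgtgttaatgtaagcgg
St6gal1: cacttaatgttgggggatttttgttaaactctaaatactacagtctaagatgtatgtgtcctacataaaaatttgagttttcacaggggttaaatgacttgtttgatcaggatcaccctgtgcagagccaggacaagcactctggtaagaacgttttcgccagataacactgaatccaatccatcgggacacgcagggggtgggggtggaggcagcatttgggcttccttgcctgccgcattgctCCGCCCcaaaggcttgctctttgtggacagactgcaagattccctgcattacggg
Irs2: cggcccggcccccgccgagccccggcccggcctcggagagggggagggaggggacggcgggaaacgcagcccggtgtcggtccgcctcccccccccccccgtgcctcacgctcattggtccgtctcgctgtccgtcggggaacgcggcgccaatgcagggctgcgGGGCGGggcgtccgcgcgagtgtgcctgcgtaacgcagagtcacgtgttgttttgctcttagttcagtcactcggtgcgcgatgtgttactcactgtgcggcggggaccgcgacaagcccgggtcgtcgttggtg
Csrnp1: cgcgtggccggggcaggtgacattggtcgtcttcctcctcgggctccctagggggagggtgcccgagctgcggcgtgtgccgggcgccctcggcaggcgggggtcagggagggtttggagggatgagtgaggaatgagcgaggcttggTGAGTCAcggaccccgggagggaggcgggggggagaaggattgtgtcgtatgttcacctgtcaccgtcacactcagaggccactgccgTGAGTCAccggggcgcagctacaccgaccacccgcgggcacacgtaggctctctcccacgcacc
Bhlhe40: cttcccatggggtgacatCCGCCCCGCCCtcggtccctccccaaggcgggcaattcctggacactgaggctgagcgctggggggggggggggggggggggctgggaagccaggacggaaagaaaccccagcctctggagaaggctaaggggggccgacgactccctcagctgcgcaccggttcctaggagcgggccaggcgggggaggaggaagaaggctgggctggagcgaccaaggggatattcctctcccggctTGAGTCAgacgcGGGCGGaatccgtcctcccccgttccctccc

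The windows lay at chr17:52139626-52139925 (minus strand), chr4:72119081-72119380 (minus strand), chr16:23043240-23043539 (plus strand), chr8:11058880-11059179 (minus strand), chr9:119812040-119812339 (minus strand) and chr6:108636795-108637094, all in GRCm39. The Satb1 window held 3 GC boxes and 1 ETS match, Tle1 held 4 GC boxes, and St6gal1 and Irs2 held 1 GC box each. The Csrnp1 window held 2 AP-1 matches and no GC box, and the Bhlhe40 window held 1 AP-1 match and 3 GC boxes. Among 32851 RefSeq promoter windows of mouse genes, 7.81% held an AP-1 match, 16.9% an ETS match and 35.7% a GC box. A RUNX match was held by 16.8%, a TCF/LEF match by 16.0% and an NFAT match by 23.4%. The 6 windows were chosen for the comparisons below, and nothing is read from their motifs.

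Judged by their midpoints, 134 (59.0%) were at promoters (no more than 1000 bp from a protein-coding transcript start), 47 in introns, 34 between genes and 12 in exons, while 56.7% of all peaks were at promoters. A protein-coding start lay somewhere inside 171 of the 227, and 16 held starts of 2 or more genes. Of the domains, 104 measured under 3500 bp, 56 from there to under 4000 bp, 36 from there to under 5000 bp and 31 at least 5000 bp. They took the names of 217 genes by the nearest start, which does not show that a domain acts on that gene. Chromosome 10 held 26 domains, 3.01% of its peaks, and chromosome 19 held 2, 0.604% of its peaks. In 13 places a domain and the next lay within 50000 bp of each other, including 3 domains near Cd69, an early activation receptor, and the pair at Nkg7, a cytotoxic granule protein, and Etfb.

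The longest domain, 15247 bp at chr10:96451784-96467030, held the start of Btg1, an antiproliferative gene expressed in quiescent lymphocytes. The Klf6 domain came next with 13862 bp (chr13:5910348-5924209), at a zinc-finger transcription factor of the early response. Fosb, an AP-1 subunit, followed with 9258 bp (chr7:19034270-19043527), a domain over exons that reached no transcript start. Of the 10 longest, 5 belonged to the immediate early and feedback list: Btg1, Klf6, Fosb, Tnfaip3 (7973 bp) and the nuclear receptor Nr4a2 (6967 bp). The others were nearest to Sfi1 (9074 bp), the quiescence factor Klf2 (7655 bp), the cell cycle regulator Rgcc (7650 bp), Phax (7432 bp) and the adhesion regulator Cytip (7276 bp). Just inside the length threshold lay intervals near Os9, Vsir and Ggps1 of 3001, 3004 and 3007 bp, and just outside it intervals near Acss1, Galnt2 and Nfatc1 of 2999, 2997 and 2992 bp. Their mean counts per kb overlapped, at 515 to 723 inside and 353 to 633 outside.

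**Figure D1:**
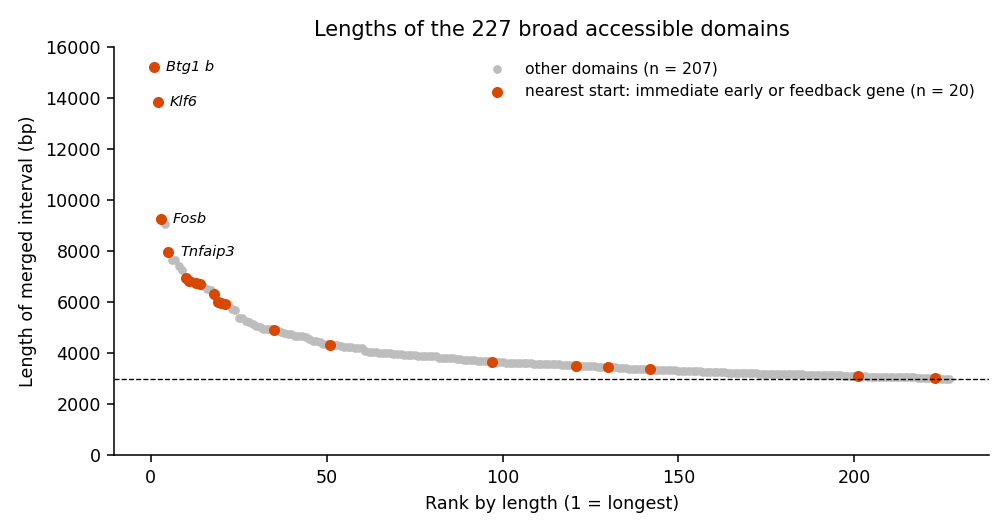
Length in bp of each of the 227 domains (vertical axis, linear) against its rank by length (horizontal axis). Orange points are the 20 domains nearest to genes of the immediate early and feedback list, grey points the other 207, and the dashed line is the 3000 bp threshold. Of the 31 domains of 5000 bp or more, 12 are orange.

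Genes of 6 lists were unevenly represented. Of 31 immediate early and feedback genes, 30 had a peak and 18 (60% of these) had a domain, with 20 domains in all and a median length of 5993 bp. Over all 8646 genes named by peaks, 2.51% had a domain. Beside the genes above the 18 included Nr4a1, Nr4a3, Jun, Junb, Fos, Egr1, Egr2, Dusp2, Rgs2, Zfp36, Zfp36l2, Nfkbia and the glucocorticoid-induced gene Tsc22d3. The start of Jund lay in a further domain that takes its name from Iqcn (6838 bp). Of 32 T-cell transcription factors, 31 had a peak and 7 had a domain: Bach2, Ets1, Klf13, Klf2, Nfatc1, Satb1 and Zeb1. Of 24 T-cell receptor and costimulation genes, 22 had a peak and 3 had a domain, among them Cd28 and Fyn. Of 18 effector genes, 17 had a peak and 1 had a domain, Nkg7. None of 11 listed inhibitory receptor and exhaustion genes with a peak and none of 26 listed homing and cytokine receptor genes with a peak had a domain. The lists do not hold all such genes: domains were nearest to the receptor genes Vsir, Tnfrsf1b and Il3ra, which are on none of them. The lists were drawn up with earlier results of these data known, so these shares are descriptions.

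Which group's peaks made a domain wide differed. In each of the 227 domains the merged peaks of the 7 group lists covered the whole interval. In N+P C5, 158 domains held a single list peak of 3000 bp or more, and in N+P C1 111 did. The numbers were 74 in S+P C5, 53 in Sensitized, 34 in Naive, 27 in S+P C7 and 10 in S+P C4. The median share of a domain covered by list peaks was 97.6% in N+P C5, 90.2% in N+P C1 and 79.7% in S+P C5, and 64.4% in Sensitized, 49.9% in Naive, 43.0% in S+P C7 and 30.7% in S+P C4. Over all peaks of a list the median length was 1117 bp in N+P C5 and 1006 bp in N+P C1. In the remaining lists it was 747 to 885 bp. The S+P C4 list held 3788 peaks and the others 8479 to 11384. Its peaks lay in 27.0% of all peaks of the table and in 67.8% of domains. The parts of depth, of list size and of general peak length in these widths were not tested. Only in an N+P list did a peak of 3000 bp or more lie in 91 domains, and 32 domains reached that width only by merging. Without both N+P lists 137 of the 227 intervals still measured 3000 bp or more. The Btg1 domain was covered to 100% by 1 peak in N+P C5, to 79.9% in Sensitized and to 78.1% in N+P C1, and no peak of the S+P C5 or S+P C7 list lay in it. The Fosb domain was listed in N+P C5 alone.

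**Figure D2:**
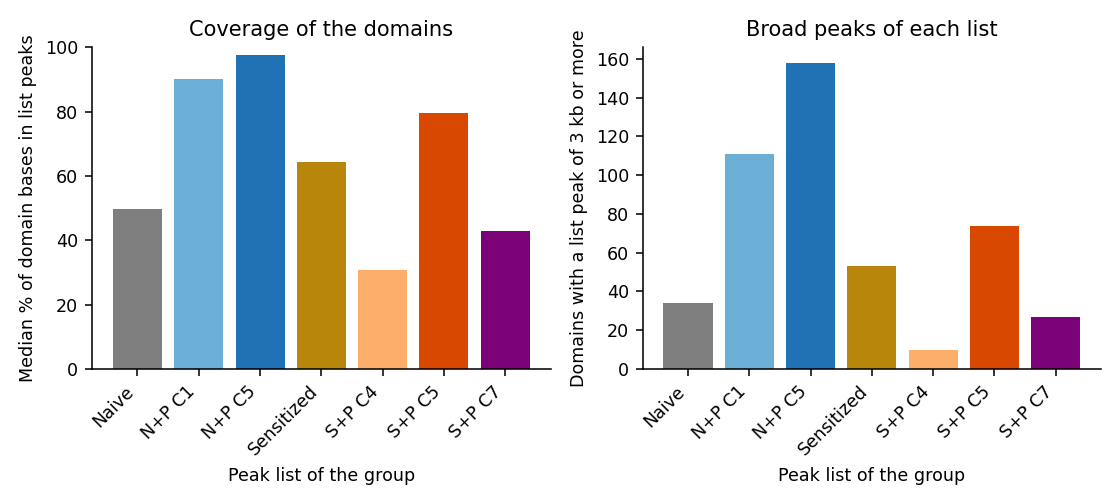
Left, median percent of a domain's bases that fall in list peaks, for the peak list of each of the 7 groups; right, number of domains (of 227) that hold a list peak of 3000 bp or more in that list. Bars start at 0 and carry no error, since each list pools the libraries of a group. N+P C5 and N+P C1 have the highest bars in both panels and S+P C4 the lowest. The lists of N+P C5 and N+P C1 also had the longest median peak, and that of S+P C4 the fewest peaks.

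Counts per kb were much alike in domains and in other peaks. The median of domains was 509 normalized counts per kb (counts divided by the library's size factor, averaged over the 25 libraries) and that of other peaks on the same chromosomes 499. Promoter domains had a median of 540 and other promoter peaks 534, and away from promoters the medians were 466 and 451. Promoter domains had 56.1% GC at the median and a ratio of observed to expected CpG of 0.704, and other promoter peaks 59.4% and 0.743. Motif densities differed in both directions. ETS matches numbered 0.450 per kb in promoter domains and 0.965 in other promoter peaks, and GC boxes 2.62 and 3.17. NFAT matches numbered 0.996 and 0.797 per kb there, TCF/LEF matches 0.598 and 0.492, RUNX matches 0.526 and 0.520 and AP-1 matches 0.205 and 0.183. Away from promoters domains held fewer RUNX matches per kb than other peaks (0.861 and 1.35), fewer AP-1 matches (0.303 and 0.485), fewer TCF/LEF matches (0.660 and 0.896) and slightly fewer ETS matches (0.317 and 0.329), but more NFAT matches (1.14 and 0.914) and GC boxes (0.866 and 0.606). Domains are longer than these peaks, and the part of length in the densities was not tested.

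The libraries held 2430890 to 25419715 counts in peaks. The lowest count of any domain in any library was 124, and the median domain held 550 counts in the shallowest library, S+P C4 replicate 1, so counting error was small beside the spread between libraries. Peaks were present at 7 of 8 CD8 T-cell marker genes, including Cd8a, Cd3e and Lck, and at 0 of 8 B-cell, 0 of 8 myeloid and 0 of 5 erythroid marker genes. Of NK-cell markers Eomes and Klrb1c had peaks and Ncr1 and Klre1 had none. Eomes is also on the T-cell transcription factor list, and the paper reports more EOMES protein in S+P than in N+P cells. Summed normalized counts of the Eomes and Klrb1c peaks were 5670 to 6359 in Naive libraries. They were 6125 to 6543 in N+P C1, 6183 to 6711 in N+P C5 and 5871 to 7152 in Sensitized. In S+P C4 they were 6741 to 7820, in S+P C5 7072 to 9331 and in S+P C7 8289 to 9809. The part of NK-like cells or genes in the results was not tested. Of the CD4 and regulatory list Cd4 alone had peaks, with summed counts of 236 to 633, highest in N+P C1. A bulk library cannot tell fewer open cells from less open chromatin per cell. Some libraries stood apart within their group. In 150 of the 227 domains (66.1%) Sensitized replicates 1 and 2 both lay above or both below replicates 3 and 4, as they did in 61.8% of all peaks, and in 104 of the 150 they lay below. Naive replicate 3 was the highest Naive library in 144 domains (63.4%) and in 43.5% of all peaks.

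The share of a library's peak counts that fell in domains was 5.86% ± 0.248 in Naive (SD, n = 3), 6.45% ± 0.114 in N+P C1 (n = 3), 6.42% ± 0.0649 in N+P C5 (n = 3) and 5.70% ± 0.365 in Sensitized (n = 4). Of the S+P subsets C4 had 6.15% ± 0.856, C5 had 5.53% ± 0.224 and C7 had 5.68% ± 0.108 (n = 4 each). The S+P C4 value rested on replicate 1, at 7.42% against 5.60% to 5.91% in the other 3. Most of that surplus lay in 3 domains, at an 18S ribosomal RNA gene (Rn18s-rs5, nearest protein-coding start Esp38) and 2 that adjoin at Sfi1. Without them C4 had 5.49% ± 0.174, C5 had 5.28% ± 0.207 and C7 had 5.28% ± 0.105, and the other groups 5.53% to 6.24%. Ribosomal RNA genes exist in many near-identical copies, so counts there are uncertain. Whether counts at Sfi1 are uncertain in the same way was not tested.

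Changes were read with DESeq2 in 1 fit of all libraries, adjusted over all peaks. Called domains had an adjusted p below 0.1 and a log2 fold change beyond 0.9 in either direction; those that passed the first condition, whatever their fold, are given beside them and are said to have passed. Over the 8 comparisons 16 of 227 domains (7.05%) were called at least once, and 21% of all peaks were. Without the fold threshold 203 domains (89.4%) passed at least once, and 81.1% of all peaks. Fold changes of domains were small and precisely measured: their median standard error (SE) was 0.0976 to 0.114 over the comparisons, against 0.136 to 0.162 for all peaks. The group means of a domain spanned a median of 0.51 on the log2 scale from the lowest to the highest of the 7 groups, and those of all peaks 0.55. Domains at promoters spanned 0.42 and all promoter peaks 0.42, but domains away from promoters spanned 0.60 against 1.00 for all peaks there. Domains hold more counts than most peaks, so the shares that passed are not matched on precision. Scaling moved the balance of directions. With size factors from the median of ratios, domains as a set lay off the median of all peaks by up to 0.33 (log2) and with offsets from a loess fit against count level by up to 0.11, so the counts in each direction are given under both. The loess fit follows count level, so it can also take out a shift that domains share through their high counts.

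**Figure D3:**
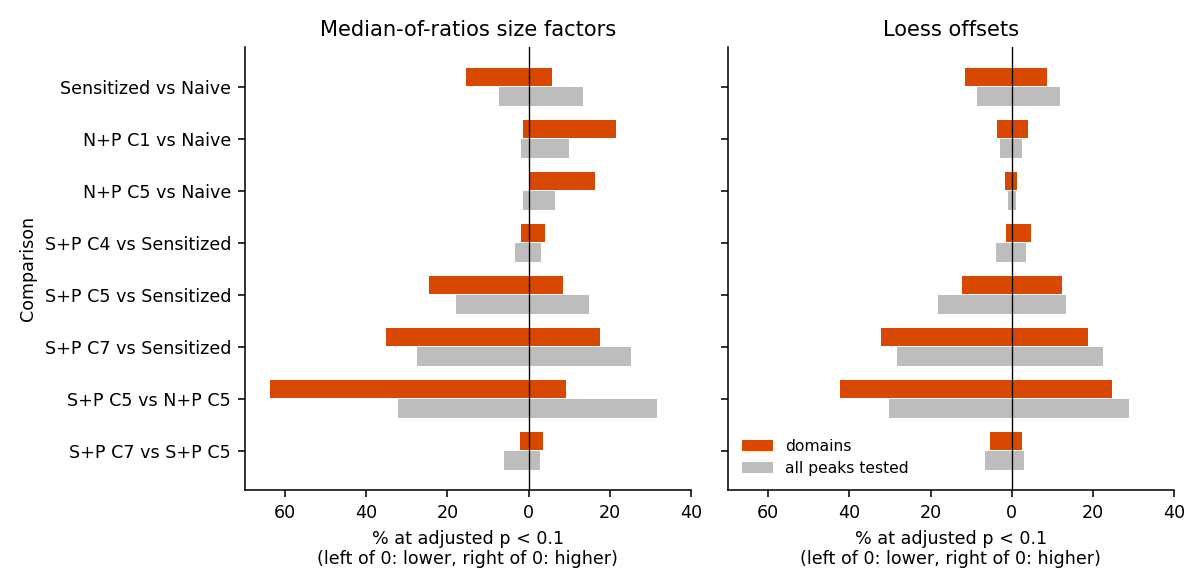
Percent of domains (orange) and of all peaks tested (grey) at an adjusted p under 0.1 in each of the 8 comparisons, higher in the first-named group to the right of 0 and lower to the left, with median-of-ratios size factors (left panel) and loess offsets (right panel). Bars start at 0. In S+P C5 against N+P C5, 145 domains are lower and 21 higher on the left, and 96 and 56 on the right.

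Sensitized was set against Naive to see what the rejected graft had left in these cells. Of 227 domains 1 was called, against 8.62% of all peaks (7.22% higher and 1.4% lower). In all 13 passed as higher and 35 as lower, against 13.3% and 7.25% of all peaks. The groups did not overlap in 42 domains (18.5%) and in 22.7% of all peaks. Loess offsets gave 20 higher and 26 lower. Away from promoters 22 of 93 domains were lower and 3 higher (21 and 5 with loess offsets), whereas 24.5% of all peaks there were higher and 10.3% lower.

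The called domain was at Bhlhe40, a basic helix-loop-helix repressor of activated T cells (chr6:108634998-108638891, promoter). Its normalized counts were 849, 862 and 1208 in Naive and 3344, 3565, 1780 and 2196 in Sensitized. Every Sensitized library lay above every Naive library, with replicates 1 and 2 highest. The log2 fold change was 1.48 ± 0.23 (SE, adjusted p 8.88e-09).

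Slc38a1, a glutamine transporter, held 1157, 1014 and 1048 in Naive and 1910, 1929, 1367 and 1419 in Sensitized. The groups did not overlap and the fold change was 0.63 ± 0.12 (adjusted p 5.22e-06). Klf10, a zinc-finger factor induced by TGF-beta, was higher by 0.26 ± 0.06 (adjusted p 4.39e-05), with 2550 to 2698 in Naive and 2936 to 3313 in Sensitized. Of the lower domains, one 15094 bp from Os9 fell by 0.36 on the log2 scale (adjusted p 7.94e-05), from 1896 to 2175 down to 1395 to 1707. The promoter of the Src-family kinase Fyn fell by 0.21 (adjusted p 0.000321) and a domain in an intron at Vgll4 fell by 0.54 (adjusted p 0.000333). These 5 changes stayed below the fold threshold. Such domains, named for their adjusted p in this and the other comparisons, were chosen among those whose groups did not overlap, so the separation of their libraries is part of that choice and adds no support.

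A first pregnancy in naive mice was examined in N+P C1 and N+P C5 against Naive. In N+P C1 0 of 227 domains were called (0.0205% of 4873 peaks tested), and 49 passed as higher and 3 as lower (9.91% and 1.99% of those peaks). At an unadjusted p under 0.05 there were 97 (42.7%, against 19% of all 13527 peaks). In N+P C5 0 of 226 tested were called (0.0262% of 3824 peaks), and 37 passed as higher and 0 as lower (7.87% of those peaks passed, 6.62% higher and 1.26% lower). At an unadjusted p under 0.05 there were 84 (37%, against 17.5% of all peaks), of which 7 were lower. The edgeR test called 0 domains in either comparison, and 0 passed. Width in N+P lists helped to choose these intervals, so the direction is not independent of the rule. Among the 137 that reached 3000 bp without both N+P lists, 29 were higher and 3 lower in N+P C1, and 24 were higher and 0 lower in N+P C5. Loess offsets gave 7 and 7 in N+P C1 and 2 and 4 in N+P C5 among these 137. Without the Naive list as well, 28 of 125 were higher and 2 lower in N+P C1 and 23 higher and 0 lower in N+P C5. Over all domains loess offsets gave 9 higher and 8 lower for N+P C1 and 3 and 4 for N+P C5. The count also rested on Naive replicate 3: without it 101 domains passed in N+P C1 and 90 in N+P C5, and without Naive replicate 2 0 passed in either. Naive replicate 1 left out gave 5 and 0. The groups did not overlap in 104 domains for N+P C1 (45.8%, against 27% of all peaks) and in 95 for N+P C5 (41.9%, against 26.2%).

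The Mex3b promoter, at a gene for an RNA-binding protein, passed in both. It held 2346, 2250 and 2481 in Naive, 3022, 2739 and 2867 in N+P C1 and 2874, 2796 and 2835 in N+P C5. Both subsets lay above every Naive library, with fold changes of 0.28 ± 0.06 (adjusted p 0.00603) and 0.26 ± 0.06 (adjusted p 0.0159), which loess offsets lowered to 0.16 and 0.15 with adjusted p 0.18 and 0.226. In N+P C1 the Wnt receptor Fzd5 was higher by 0.35 ± 0.07 (adjusted p 0.0012) and the calcium pump Atp2b1 by 0.45 ± 0.10 (adjusted p 0.0114). In N+P C5 the metabolic gene Etfb was higher by 0.41 ± 0.10 (adjusted p 0.0242) and Ppp3ca, which encodes a calcineurin catalytic subunit, by 0.33 ± 0.08 (adjusted p 0.0289), and with loess offsets Ppp3ca no longer passed (0.22, adjusted p 0.134). In N+P C1 the intron domain of Bach2, a repressor that preserves naive T cells, held 3000, 3223 and 3467 against 3995, 3773 and 3596 in Naive. It fell by 0.23 (adjusted p 0.0596), and the Vgll4 domain fell by 0.42 (adjusted p 0.0596).

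Pregnancy after sensitization was examined first in PD1- cells, S+P C4 against Sensitized. Of 227 domains 3 were called, against 0.858% of all peaks, and 9 passed as higher and 4 as lower (6.54% of all peaks passed, 3.12% higher and 3.42% lower). The groups did not overlap in 7 domains (3.08%), against 3.96% of all peaks. Loess offsets gave 11 and 3. The 3 called domains were the one at Rn18s-rs5, where counts are uncertain, and the 2 at Sfi1. With the 2 groups alone in the fit 0 were called, and with the replicate as a block 1. The Rn18s-rs5 domain (chr17:40153838-40159779) held 104737, 15652, 14813 and 13561 in S+P C4 and 7070, 6398, 6939 and 9456 in Sensitized. It rose by 2.32 ± 0.54 on the log2 scale (adjusted p 0.00281). Replicate 1 stood far above the rest, but the other 3 libraries also lay above every Sensitized library. The longer Sfi1 domain held 26299, 6676, 6895 and 4087 against 3184, 4031, 2404 and 3432, and rose by 1.75 ± 0.45 (adjusted p 0.0092). The shorter Sfi1 domain rose by 1.47 ± 0.43 (adjusted p 0.0318), with groups that overlapped. Without S+P C4 replicate 1, 1 domain was called, the one at Rn18s-rs5, with fold changes of 0.97 there and of 0.85 and 0.71 in the longer and the shorter Sfi1 domain. Without Sensitized replicate 1, 71 domains passed. Apart from these, a domain near Tspoap1 was higher by 0.39 ± 0.09 (adjusted p 0.00148), with 2021, 2139, 2188 and 2181 in S+P C4 and 1688, 1434, 1764 and 1626 in Sensitized.

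In PD1+ cells of sensitized mice more domains passed as lower than as higher after pregnancy, except that loess offsets gave equal numbers in S+P C5. In S+P C5 against Sensitized 3 domains were called, 0 higher and 3 lower, against 6.74% of all peaks (3.08% higher and 3.67% lower). Of the domains 19 passed as higher and 56 as lower, and 32.9% of all peaks passed (14.9% and 18%). In S+P C7 against Sensitized 11 were called, 3 higher and 8 lower, against 11.9% of all peaks (3.83% and 8.03%), and 40 passed as higher and 80 as lower (25.3% and 27.6%). Both comparisons share the Sensitized libraries. Some intervals owed their width to the groups compared. Among those that reached 3000 bp from the other 5 lists, 13 of 198 were higher and 53 lower in S+P C5, and 3 were called. The same count for S+P C7 was 38 of 221 higher and 77 lower, and 9 were called, without the domains at Phax and Sh2d2a. The groups did not overlap in 23 domains for S+P C5 (10.1%, against 14.7% of all peaks) and in 55 for S+P C7 (24.2%, against 25.5%). With loess offsets S+P C5 gave 28 higher and 28 lower and S+P C7 43 and 73. Sensitized replicate 1 weighed on the first count, which was 122 without it, 45 without replicate 3, 34 without replicate 4 and 45 without S+P C5 replicate 2. The calls in S+P C5 were 1 without Sensitized replicate 3 or 4, and those in S+P C7 were 6 without S+P C7 replicate 2. Away from promoters 9 of 93 domains were called in S+P C7, and 24.6% of all peaks there.

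St8sia1, which encodes the sialyltransferase that makes the ganglioside GD3, was called lower in both, in a domain 47996 bp from its start (chr6:142860359-142864004, intron). It held 966, 1215, 2273 and 2306 in Sensitized, 933, 726, 874 and 699 in S+P C5 and 631, 429, 421 and 314 in S+P C7. No library of either subset reached a Sensitized library. It fell by 1.06 on the log2 scale in S+P C5 (adjusted p 0.00243) and by 1.91 in S+P C7 (adjusted p 8.83e-10). St6gal1, a sialyltransferase that modifies glycoproteins, fell by 1.94 in S+P C7 (adjusted p 1.81e-09), with 535, 277, 220 and 327 against 823, 1049, 1766 and 1591 (chr16:23041819-23045889, promoter).

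Tle1, a corepressor recruited by TCF/LEF factors among others, fell by 0.98 in S+P C5 (adjusted p 0.000568) and by 1.04 in S+P C7 (adjusted p 7.63e-05; chr4:72116607-72120560, promoter). Its counts were 1921, 2530, 2638 and 2789 in Sensitized, 1208, 911, 1395 and 1501 in S+P C5 and 802, 691, 1471 and 1845 in S+P C7. Neither subset overlapped Sensitized, although S+P C7 fell into a lower and a higher pair. Irs2, an adaptor of the insulin receptor, fell by 1.17 in S+P C5 (adjusted p 0.0158). In S+P C7 it fell by 1.77 (adjusted p 4.13e-05). Its Sensitized libraries were as far apart as 416, 505, 1507 and 1283, so that S+P C5, at 631, 306, 267 and 438, overlapped them. In S+P C7 it held 388, 211, 257 and 232, below every Sensitized library.

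S+P C7 had further calls away from the genes above. A domain 14418 bp from the start of the receptor gene Gpr18 fell by 1.02 (adjusted p 1.87e-08), a domain near the helicase gene Dhx40 by 0.97 (adjusted p 6.78e-07), and the Rgcc domain, with overlapping groups, by 1.00 (adjusted p 0.00242). The next 2 are descriptions without a test, since each was wide only through the list of the group in which it was higher. The Phax domain, listed in Sensitized alone, was lower by a log2 fold change of −0.93, and its groups overlapped. Sh2d2a, which encodes the T-cell adaptor TSAd and spanned 2858 bp without the lists of both groups, was higher by 0.92 ± 0.15, with 2429, 2998, 3055 and 2529 in S+P C7 and 1879, 1541, 1241 and 1166 in Sensitized. The domains at Rn18s-rs5 (1.50 ± 0.54, adjusted p 0.0152) and the longer one at Sfi1 (1.14 ± 0.45, adjusted p 0.0301) were the other 2 called higher.

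Among smaller changes in S+P C5, the transcription factor gene Csrnp1 was higher by 0.41 ± 0.09 (adjusted p 8e-05), and the clock gene Per1 by 0.40 ± 0.09 (adjusted p 0.000138). Lower was D16Ertd472e, an intron domain that held 910, 880, 915 and 975 in S+P C5 and 1316, 1721, 1475 and 1704 in Sensitized. The fold change was −0.75 and the groups lay apart. This interval spanned 2254 bp without the lists of both groups, so the change is a description with no test.

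**Figure D4:**
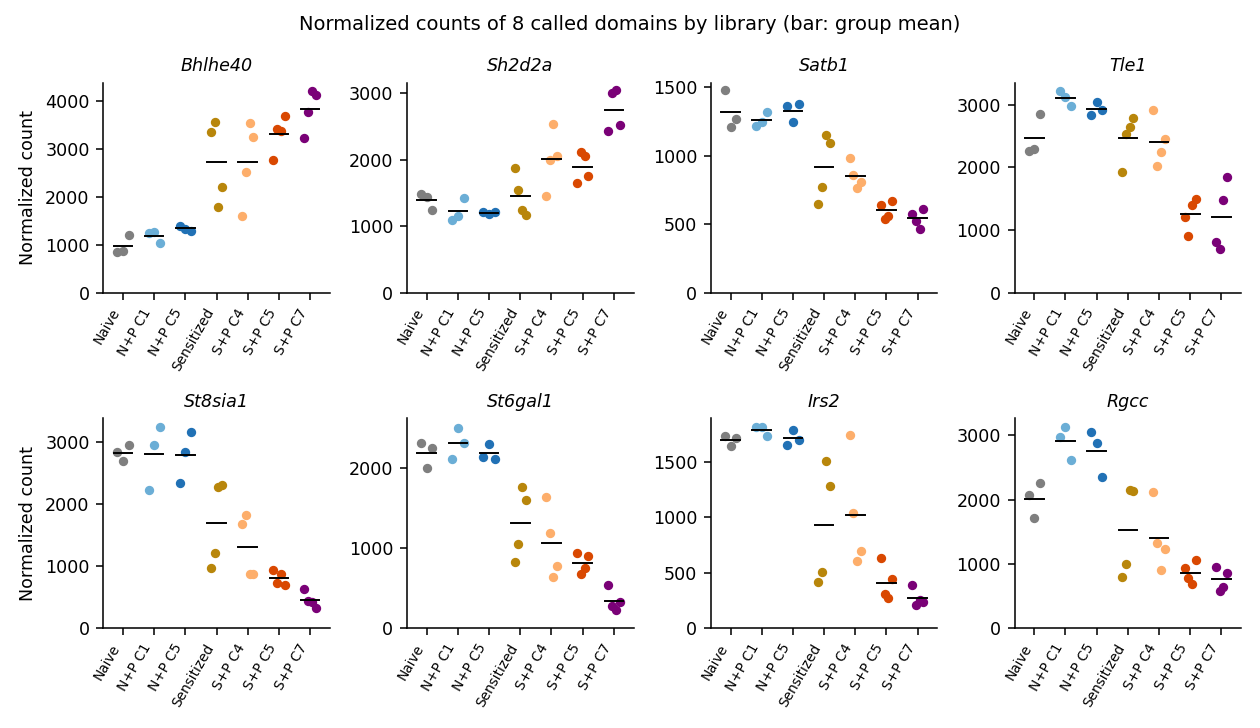
Normalized count (vertical axes, linear and starting at 0) of 8 called domains in each library of the 7 groups; points are libraries and horizontal bars group means. Bhlhe40 and Sh2d2a are higher in S+P C7 than in Naive, the other 6 are lower, and Sensitized libraries spread widely in St8sia1, St6gal1, Irs2 and Rgcc.

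How PD1+CD73+ cells differ with prior sensitization was asked by comparing S+P C5 with N+P C5. It was the comparison in which most domains passed. Of 227, 11 were called, 1 higher and 10 lower, against 17.2% of all peaks (10.3% higher and 6.97% lower). In all 21 passed as higher and 145 as lower, against 63.8% of all peaks (31.6% and 32.2%). N+P C5 lists set the width of many of these intervals, and nothing is read from that balance. Among the 155 intervals that reached 3000 bp from the lists of the other 5 groups, 10 were higher and 111 lower, and 9 were called. The other 2 called domains, Satb1 and Rgcc, had peaks of 3000 bp or more in the N+P C5 list alone, the group in which they were higher, and their changes here are descriptions with no test. Loess offsets gave 56 higher and 96 lower, with the median fold change moving from −0.33 to −0.11. At promoters 87 of 134 domains were lower and 11 higher (57 and 36 with loess offsets), while 30.9% and 27.5% of all promoter peaks were. Away from promoters 58 of 93 were lower and 10 higher (39 and 20 with loess offsets), against 33.8% and 36.9% of all peaks there.

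Satb1, a chromatin organizer of developing and naive T cells, had its domain at the promoter (chr17:52138384-52141435), and the widest interval left without the lists of both groups was 2023 bp. It held 1358, 1242 and 1379 in N+P C5 and 637, 534, 562 and 667 in S+P C5, groups that lay far apart. The fold change was −1.14 ± 0.15, and −1.05 with loess offsets. The Satb1 domain held 645, 770, 1147 and 1093 in Sensitized, where all but replicate 1 lay between both groups of C5 cells.

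Irs2 fell by 2.06 on the log2 scale (adjusted p 5.32e-06), from 1715 ± 71.1 in N+P C5 (SD, n = 3) to 411 ± 164 in S+P C5 (n = 4). St8sia1 fell by 1.78 (adjusted p 7.54e-08) and Marcks, a protein kinase C substrate that binds actin, by 1.42 (adjusted p 3.46e-07). The fold change of Rgcc was −1.68. The Marcks domain spanned 5386 bp at its promoter and held 1989, 2126 and 1926 in N+P C5 and 869, 602, 649 and 877 in S+P C5. St6gal1 fell by 1.42 (adjusted p 3.95e-05), Tle1 by 1.22 (adjusted p 8.93e-06), Tsc22d3 by 1.01 (adjusted p 0.000121), Dhx40 by 0.97 (adjusted p 2.73e-06) and Gpr18 by 0.95 (adjusted p 8.84e-07). In all 10 lower domains and in Bhlhe40 the groups did not overlap, as was the case in 154 domains (67.8%) and in 62.9% of all peaks.

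Bhlhe40 was the called higher domain, with 1388, 1334 and 1290 in N+P C5 and 2775, 3412, 3367 and 3675 in S+P C5, a fold change of 1.31 ± 0.23 (adjusted p 2.32e-07). Slc38a1 just missed the fold threshold at 0.89 ± 0.12 (adjusted p 8.2e-12), with 1400, 1183 and 1154 against 2030, 2388, 2348 and 2452, and passed it with loess offsets (1.06). Both were higher in each S+P C5 library than in any N+P C5 library.

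Whether pregnancy moved C5 cells differently in sensitized mice was tested as a difference of 2 effects, that of S+P C5 over Sensitized less that of N+P C5 over Naive. It passed in 113 domains (31.2% of all peaks), 17 with a higher and 96 with a lower effect in sensitized mice (15% and 16.3% of all peaks), and 6 passed the fold threshold as well, 0 higher and 6 lower (5.97% of all peaks, 3.04% higher and 2.93% lower). Loess offsets gave 31 higher and 46 lower (13.2% and 16.1% of all peaks), and 3 past the fold threshold. N+P C5 lists set the width of many of these intervals, and nothing is read from the balance. Among the 137 intervals that reached 3000 bp without the lists of the 4 groups, 6 were higher and 69 lower, or 15 and 33 with loess offsets, and 4 passed both thresholds, or 2. The number past both thresholds rested on single libraries. It was 1 without Naive replicate 2 or Sensitized replicate 4, 3 without Sensitized replicate 3 or S+P C5 replicate 2, 13 without Sensitized replicate 1 and 17 without Naive replicate 3. The number that passed was 48 without Naive replicate 2, 65 without Naive replicate 1, 67 without Sensitized replicate 4 and 73 without N+P C5 replicate 3. The 4 wide without those lists were Tle1 (−1.22 ± 0.36, adjusted p 0.0117), Marcks (−1.07 ± 0.36, adjusted p 0.0274), St8sia1 (−1.04 ± 0.43, adjusted p 0.0671) and Tent5a (−0.92 ± 0.23, adjusted p 0.0032). The other 2, Rgcc (−1.27 ± 0.44) and D16Ertd472e (−0.91 ± 0.15), were wide only through lists of these 4 groups, Rgcc through that of N+P C5, where it was high, and are given as descriptions. With loess offsets Tle1 (−1.04) and Marcks (−0.96) kept both thresholds, Tent5a (−0.75) the first only, and St8sia1 neither (−0.89, adjusted p 0.12). As descriptions, Rgcc was at −1.12 and D16Ertd472e at −0.77 with these offsets. Tent5a, a poly(A) polymerase gene, held 1175, 1162 and 1914 in Naive and 2201, 2134 and 2135 in N+P C5, but 1132, 1849, 1832 and 1795 in Sensitized and 1413, 1163, 1204 and 1510 in S+P C5. All N+P C5 libraries of this domain lay above all Naive libraries, whereas S+P C5 overlapped Sensitized. Fold changes against Naive were alike in N+P C1 and N+P C5. They were 0.61 and 0.60 at Tent5a, 0.64 and 0.55 at Marcks and 0.33 and 0.25 at Tle1, in that order. At St8sia1 they were −0.01 and −0.02, at Rgcc 0.53 and 0.46 and at D16Ertd472e 0.18 and 0.15. The naive side of these differences was thus not particular to C5.

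**Figure D5:**
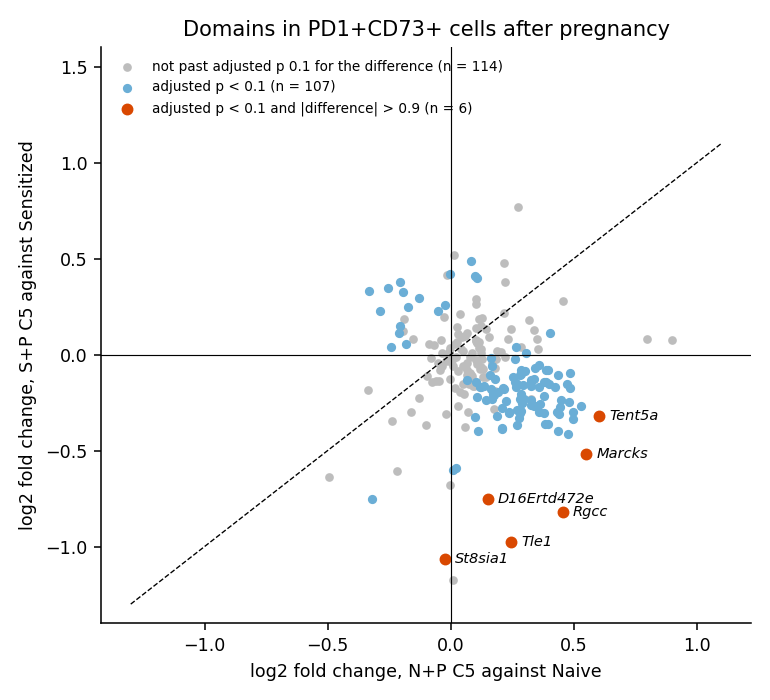
Log2 fold change of each domain in S+P C5 against Sensitized (vertical axis) and in N+P C5 against Naive (horizontal axis), comparisons that share no library. The dashed line marks equal effects, blue points 107 domains in which the difference passed an adjusted p of 0.1, and orange points the 6 that also exceed 0.9 in size, all below the line.

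Within PD1+ cells of sensitized mice, S+P C7 (CD73-) was compared with S+P C5 (CD73+). Of 227 domains 1 was called, 0 higher and 1 lower, against 2.38% of all peaks (0.266% and 2.11%), and 8 passed as higher and 5 as lower (8.93% of all peaks passed, 2.83% and 6.1%). Loess offsets gave 6 higher and 12 lower (3.1% and 6.69% of all peaks), so the balance turned with the scaling. The replicate numbers pair these samples: in all 4 pairs the deviations from the group means correlated, with r from 0.522 to 0.771 across peaks. With the replicate as a block 1 domain was called and 69 passed (30.4%), 37 higher and 32 lower, against 26.3% of all peaks (11.7% higher and 14.6% lower). The called domain was St6gal1, which held 933, 669, 754 and 903 in S+P C5 and 535, 277, 220 and 327 in S+P C7, without overlap. It fell by 1.26 (adjusted p 0.00132). St8sia1 fell by 0.85 (adjusted p 0.049) and Saraf, a brake on store-operated calcium entry, by 0.30 (adjusted p 0.00609). The Tspoap1 domain was higher by 0.44 ± 0.09 (adjusted p 7.45e-05) and a promoter domain shared by 1700056E22Rik and the phosphatase gene Dusp10 by 0.27 ± 0.06 (adjusted p 0.00208). Sh2d2a, wide only through the S+P C7 list, was higher by 0.54 ± 0.15, a description with no test. The groups did not overlap in 17 domains (7.49%), against 11.5% of all peaks, and the 6 named here were chosen among these 17.

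The immediate early and feedback domains include 12 of the 31 domains of 5000 bp or more. Of these 20, 1 (5%) was called, in 1 comparison, a share near the 7.05% of all domains called at least once and below the 21% of all peaks. It lay 60204 bp from the start of Tsc22d3 and was called in S+P C5 against N+P C5. Against Naive, 1 was higher in Sensitized (Nr4a2, 0.33), 1 in N+P C1 (Egr2, 0.26) and 0 in N+P C5, where 6 (30%) had an unadjusted p under 0.05 in DESeq2, against 37% of all domains, and 0 passed in edgeR. Of all peaks tested 20.5% passed in Sensitized, 11.9% in N+P C1 and 7.87% in N+P C5. In N+P C1 with loess offsets Egr2 was at 0.13 and no longer passed (adjusted p 0.182), while Dusp2 passed as lower (−0.49, adjusted p 0.0783). Against Sensitized, Nr4a1 was higher in S+P C4 (0.46), and Nr4a1 (0.29) and Nr4a2 (0.38) were higher and Rgs2 (−0.32) lower in S+P C5. Of all peaks 6.54% passed in the first of these comparisons and 32.9% in the second. The share of the list that passed was near the former and below the latter. In S+P C7 against Sensitized 6 of the list were higher and 2 lower. The 6 were Nr4a1 (0.56), Dusp2 (0.45), Nr4a2 (0.43), Egr1 (0.34), the domain at the Zfp36l2 promoter (0.32) and Junb (0.17, adjusted p 0.118 with loess offsets), and the 2 were Jun (−0.60) and Rgs2 (−0.20). These 8 were 40% of the list, where 52.8% of all peaks passed. In S+P C5 against N+P C5 2 were higher, again Nr4a2 (0.49) and Nr4a1 (0.38), and 8 were lower, including Jun (−0.81), Btg1 (−0.78) and Klf6 (−0.78). These 10 were 50% of the list, where 63.8% of all peaks passed (31.6% higher and 32.2% lower) and 145 of the 227 domains were lower. N+P C5 lists set the width of many intervals in this comparison, and nothing is read from the balance of the list either. With loess offsets the lower domains at Fos (−0.15), Egr2 (−0.01) and one of Zfp36l2 (−0.01) no longer passed, and the list had 8 higher and 5 lower, so its balance turned with the scaling. In S+P C7 against S+P C5 0 passed in DESeq2 or edgeR, and 4 (20%) had an unadjusted p under 0.05 in DESeq2, against 15.9% of all domains. With the replicate as a block 6 (30%) passed, near the 30.4% of all domains: Dusp2 (0.32), Nr4a1 (0.27), a Zfp36l2 domain (0.15) and Rgs2 (0.12) were higher, and Fosb (−0.32) and Jun (−0.26) lower.

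Nr4a1 encodes an orphan nuclear receptor induced by T-cell receptor signals. Its promoter domain (chr15:101164053-101167074) held 1276, 984, 945 and 892 in Sensitized and 1392, 1301, 1641 and 1323 in S+P C4. The other S+P subsets held 1086, 1198, 1372 and 1355 (C5) and 1335, 1537, 1718 and 1461 (C7). S+P C4 and S+P C7 lay above every Sensitized library, and S+P C5 overlapped Sensitized replicate 1. Nr4a3, its relative, passed in none of the 8 comparisons with size factors from the median of ratios, and held 3844 to 4866 over all 25 libraries. The Btg1 domain held 6772, 6033 and 8511 in Naive, 10085, 9514 and 9973 in N+P C5, 4038, 5098, 8156 and 8162 in Sensitized and 5909, 5434, 5033 and 6520 in S+P C5. N+P C5 was highest in each of its libraries, and Sensitized replicate 1 was the lowest library of these 4 groups.

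Among the 7 T-cell transcription factor domains, 2 were higher and 4 lower in S+P C5 against N+P C5 (median −0.15), a comparison in which 166 of the 227 domains and 63.8% of all peaks passed. With loess offsets 3 were higher and 2 lower. The width of many intervals came from N+P C5 lists, that of Satb1 among them, and nothing is read from this balance. Nfatc1, a factor of calcium signals (0.72, adjusted p 5.3e-05), and Ets1 (0.21, adjusted p 0.0554) were higher. Satb1, described above, Klf2 (−0.81, adjusted p 0.000365), Zeb1 (−0.53, adjusted p 0.0154) and Klf13 (−0.15, adjusted p 0.0182) were lower, and Klf13 changed sign with loess offsets (0.13), under which neither it nor Zeb1 (−0.34, adjusted p 0.134) passed. Klf2, which maintains quiescence and homing receptors, held 4695, 4678 and 4125 in N+P C5 and 2434, 2112, 2537 and 3205 in S+P C5. Among T-cell receptor and costimulation domains, Fyn (−0.30, adjusted p 4.4e-08) was lower there, though not with loess offsets (−0.10, adjusted p 0.148), and Cd28 was lower in S+P C7 than in S+P C5 (−0.54, adjusted p 0.0637). The single effector domain, Nkg7, was higher in Sensitized than in Naive (0.54 ± 0.12, adjusted p 0.000116) and in S+P C7 than in Sensitized (0.52 ± 0.11, adjusted p 1.88e-05). It held 1171, 1089 and 1296 in Naive, 1893, 2045, 1395 and 1548 in Sensitized and 2296, 2431, 2528 and 2613 in S+P C7, 3 ranges that did not overlap.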

How the data were processed

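Per the labels and the methods, the authors trimmed reads with Cutadapt 3.4, aligned them to GRCm39 with Bowtie2 2.2.9, removed duplicates with Picard 2.21.8, called peaks per library with Genrich 0.6.1 in its ATAC mode, kept those that recurred in a group with ChIP-R, merged the 7 lists with bedtools 2.27.1 and counted reads with deepTools. The deposited table holds raw counts. The deposited lists carry a ChIP-R score, a signal value and a q-value (p-value scale) per peak. They pool the libraries of a group and have no replicate error.

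Coverage of domains came from list intervals, with q under 0.05 as an alternative. Counts were tested with DESeq2 1.42.0 (R 4.3.3; Wald test, group as the only term, 25 libraries, independent filter, Benjamini-Hochberg over all peaks). Normalized counts are counts divided by size factors. Alternatives were edgeR 4.0.16 (quasi-likelihood), TMM size factors, loess offsets (span 0.3, limma 3.58.1), at least 100 counts in at least 3 libraries, no independent filter, the 2 groups alone, a replicate block and each library left out. The fits were tested on simulated data. No library copied another.

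Peaks were annotated with GENCODE vM39; a promoter lies within 1000 bp of a protein-coding transcript start. RefSeq promoter windows carry coordinates of another build, so they were matched by sequence. Named domains were the 10 longest, up to 3 higher and 3 lower per comparison (adjusted p under 0.1, no overlap between groups, smallest adjusted p, called before others), those of the gene lists, the 3 on each side of the threshold, and all called. Members and lists were chosen with earlier results of these data known. Some domains that this rule names are not reported here.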

Additional observations from a re-analysis of the deposited data

Results flagged for a closer look

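Values are flagged in 4 of the 72 sets of 4 libraries examined, where 3.6 would be by chance. In each the highest library lay apart from the other 3. In S+P C4 these were replicate 1 at the Rn18s-rs5 domain near Esp38, with a normalized count of 104737, at the longer Sfi1 domain (26299) and at Tsc22d3 (1409), where the next library held 830. This is the shallowest library, and the part of depth was not tested. In S+P C5 it was replicate 3 at Gpr18, with 1644 against 1190 or less.

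The effect of pregnancy in C5 cells passed both thresholds for a difference between sensitized and naive mice in 6 domains, by DESeq2's test of the difference adjusted over all peaks. The difference was −0.91 for D16Ertd472e, −0.92 for Tent5a, −1.22 for Tle1, −1.07 for Marcks, −1.27 for Rgcc and −1.04 for St8sia1. Rgcc and D16Ertd472e were wide only through the lists of groups that enter the difference, Rgcc through that of N+P C5, in which it was high, so these 2 values are descriptions. The Naive and Sensitized libraries that enter it were themselves uneven, as described above.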

How the results depend on the processing

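The 55 fold changes of domains that were called, or named in a comparison for a small adjusted p and groups without overlap, were refitted 790 times. Of these refits 737 kept their direction and side of the threshold, 53 kept the direction only and 0 reversed. Members of the gene lists named on other grounds were not among them, and Klf13 changed sign with loess offsets. Called domains changed under the replicate block in Sensitized against Naive (4, from 1), in N+P C5 against Naive (1, from 0) and in S+P C4 against Sensitized (1, from 3), and with the 2 groups alone in S+P C4 against Sensitized (0). Domains that passed in N+P C1 against Naive (52) numbered 85 with the 2 groups alone, 0 with edgeR, 30 without the independent filter and 17 with loess offsets. In N+P C5 against Naive (37) they numbered 69, 0, 12 and 7 under these, and 20 with TMM. Among intervals that were 3000 bp without both N+P lists they numbered 32 in N+P C1 and 24 in N+P C5, and without the Naive list too 30 and 23. In S+P C4 against Sensitized (13) there were 4 with the 2 groups alone, 8 with edgeR and 7 with the block. In S+P C7 against S+P C5 (13) there were 28 with the 2 groups alone, 8 with edgeR, 69 with the block and 7 among intervals from the other 5 lists. For the difference of pregnancy effects, alternatives chosen after the data were seen gave 3 domains past both thresholds with loess offsets (6 in the fit reported), and 1 to 17 with 1 library left out. The numbers that passed were 48 to 136 with 1 library left out and 75 among intervals wide without the lists of the 4 groups, against 113. The causes were not tested.

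Leaving out 1 library gave 1 to 4 calls in Sensitized against Naive, 0 to 2 in each N+P comparison, 1 to 3 in S+P C4, 1 to 4 in S+P C5 and 6 to 11 in S+P C7 against Sensitized, 10 to 14 in S+P C5 against N+P C5 and 1 to 2 in S+P C7 against S+P C5. The numbers that passed were 26 to 56, 0 to 101 (N+P C1), 0 to 90 (N+P C5), 6 to 71, 34 to 122, 87 to 152, 155 to 168 and 7 to 24 in the same order. The 4 calls in Sensitized against Naive came without Sensitized replicate 3, and the 2 in each N+P comparison without Naive replicate 3.

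Replicate numbers paired the samples of S+P C7 and S+P C5 alone among the 8 comparisons. In the other 7 the correlations between same-numbered libraries ran from −0.759 to 0.363, and the block is a hint from the data. Among sorted subsets not compared here, they ran from 0.108 to 0.400 for N+P C5 and N+P C1, from 0.103 to 0.572 for S+P C5 and S+P C4 and from 0.0639 to 0.666 for S+P C7 and S+P C4. List peaks with q under 0.05 lay in 45 to 86 domains per group, against 154 to 214 for all list peaks. Depth differs between libraries, and its part in the width of list peaks was not tested.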
